A study of Mus musculus with 6 samples.

Results

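Axon guidance genes were compared between 3 mouse gliomas that regrew once their driver, a mutant epidermal growth factor receptor (EGFR), had been extinguished, called relapsed, and 3 control gliomas, with 1 Affymetrix array per tumour. The genes were all those on the array whose probe sets carried a single symbol and belonged to the Eph receptors, ephrins, semaphorins of classes 3 to 7, plexins, neuropilins, Slits, Robos, Unc5 receptors, netrins or Dcc, which gave 67 of the 19938 genes measured. They fell into 35 ligands and 32 receptors. Ephb2 is also an Eph receptor and was not analysed here.

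Both groups grew from mutant EGFR-driven glioma cells implanted beneath the flank skin of Nu/Nu mice, a nude strain that lacks a thymus, and tumours were taken at 2 cm3. The relapsed gliomas are numbered 1, 2 and 3 in the labels and the control gliomas 1, 2 and 4. Mice drank water with or without 2 g/L doxycycline, but the labels do not say which group had the drug, which form of EGFR the cells carried, how the cells were made or whether each tumour came from its own animal. The spread behind each p-value is therefore that between these 6 tumours, and whether it is also a spread between animals is not known. The tumours lay outside the brain and can hold host tissue as well as glioma cells. Fewer cells of a type and less RNA per cell therefore cannot be told apart. Relapsed 1 stood apart in adipocyte markers, relapsed 3 in keratinocyte markers and control 2 in skeletal muscle markers. Each called guidance or pathway gene is therefore also described with every array left out in turn.

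Guidance cues are secreted or membrane-bound proteins that attract or repel growing axons and migrating cells. Ephrins bind Eph receptor tyrosine kinases on neighbouring cells. Class 3 semaphorins are secreted, and most of them bind neuropilins, which signal through plexins, while most semaphorins of classes 4 to 7 are anchored in the membrane and bind plexins directly. Slits are repellents that bind Robos, and netrins attract through Dcc and repel through Unc5 receptors. In brain tumours and other tissues the same proteins also take part in vessel growth, cell sorting and invasion.

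Values are log2 intensities, normalized between arrays by the authors, so a difference of 1 is a 2-fold difference in signal. A gene was called when limma, fitted over all 19938 genes, gave a two-sided p under 0.05 after Benjamini-Hochberg adjustment over all of them. Errors of differences are standard errors (SE) from that fit, and errors of levels are standard deviations (SD) over 3 arrays. The level of one gene was not set against that of another, because probe sets differ in brightness. A level of 5.65, the median over probe sets to which the annotation assigns no gene, serves as a mark of dim signal.

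Of the 67 guidance genes, 11 were called, or 16.4%, against 9.16% of all genes measured. Sema3c, Sema3d and Epha3 rose in relapsed gliomas, and Sema5b, Sema6a, Sema6d, Sema4g, Ephb1, Epha5, Ntn1 and Ntn3 fell. The share that rose was 3 of 67, beside 3.69% of all genes, and the share that fell was 8 of 67, beside 5.47%. With each array centred on its median, 3 guidance genes rose and 11 fell, beside 696 and 1687 of all genes, against 735 and 1091 without centring. Of the 11, 9 changed by at least 2-fold, beside 3.14% of all genes that were called with a change of that size. The 3 rises and 6 of the 8 falls were of that size, the others being Sema4g and Ntn3. Relapsed and control values did not overlap for 30 of the 67 genes, or 44.8%, beside 30.8% of all genes. The median difference was -0.12 over the guidance genes and -0.02 over all genes. Ligands supplied 8 of the 11 calls and receptors 3. Between the 2 roles no difference was tested. The higher share of calls among guidance genes did not hold among brighter genes. With the dimmer 50% of genes left out, 6 of 37 guidance genes were called, or 16.2%, beside 20.3% of all genes kept.

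**Figure D1:**
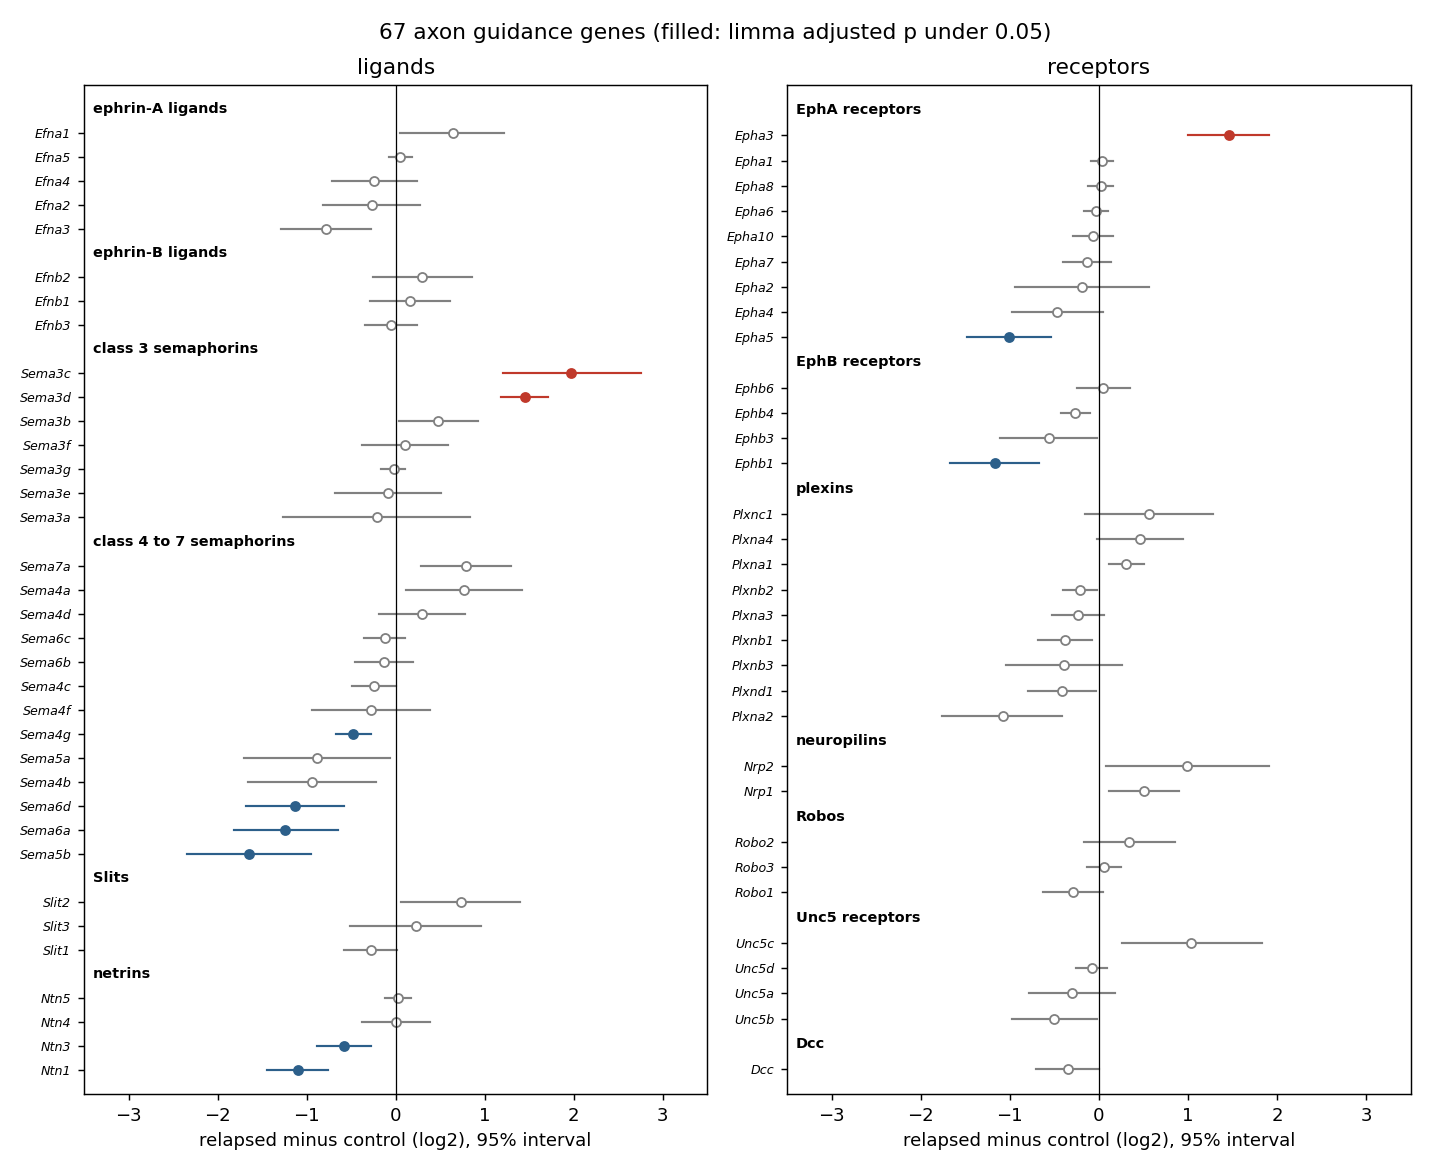
Difference between relapsed and control gliomas (log2, relapsed minus control) for each of the 67 guidance genes, grouped by family, with ligands on the left and receptors on the right. Lines are 95% intervals from limma, and filled points are the 11 called genes, red for the 3 that rose and blue for the 8 that fell; no plexin, neuropilin, Slit, Robo, Unc5 receptor or ephrin is filled.

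Upstream sequences are shown for the 3 genes that rose, because they rose together, and for Sema5b, which had the largest fall. Each run is the 250 bases before the gene's start from RefSeq on build GRCm38.p6, read 5′ to 3′ on the gene's own strand. Capitals mark matches to a GC box (GGGCGG on either strand), the element bound by Sp1-type factors.
Sema3d, chr5:12382916-12383165, plus strand: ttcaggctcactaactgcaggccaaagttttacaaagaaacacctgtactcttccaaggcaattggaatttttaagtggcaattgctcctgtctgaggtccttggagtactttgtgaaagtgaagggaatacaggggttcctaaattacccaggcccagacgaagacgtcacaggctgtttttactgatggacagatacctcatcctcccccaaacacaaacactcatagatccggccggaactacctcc
Sema3c, chr5:17574566-17574815, plus strand: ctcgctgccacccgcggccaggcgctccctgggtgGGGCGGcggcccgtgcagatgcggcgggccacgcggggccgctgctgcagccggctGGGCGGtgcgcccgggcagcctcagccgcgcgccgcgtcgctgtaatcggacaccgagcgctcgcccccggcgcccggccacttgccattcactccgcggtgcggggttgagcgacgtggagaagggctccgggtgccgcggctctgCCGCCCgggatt
Epha3, chr16:63864176-63864425, minus strand: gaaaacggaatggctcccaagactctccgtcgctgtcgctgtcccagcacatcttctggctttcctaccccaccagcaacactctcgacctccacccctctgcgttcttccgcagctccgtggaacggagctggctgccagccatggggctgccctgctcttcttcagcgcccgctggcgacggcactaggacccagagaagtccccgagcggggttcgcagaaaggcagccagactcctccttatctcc
Sema5b, chr16:35541112-35541361, plus strand: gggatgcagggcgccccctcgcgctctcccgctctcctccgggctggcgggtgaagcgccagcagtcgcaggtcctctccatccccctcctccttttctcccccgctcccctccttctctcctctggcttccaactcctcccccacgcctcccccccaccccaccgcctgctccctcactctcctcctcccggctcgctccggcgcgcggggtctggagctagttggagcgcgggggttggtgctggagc
The windows of Sema3c and Sema3d differed in composition, with 78.4% and 46.8% of bases being G or C. Sema3c held 3 GC boxes, and none was found in the windows of Sema3d, Epha3 and Sema5b, which had a G or C share of 62.8% for Epha3 and 72% for Sema5b. Other motifs sought on both strands were the TATA box, with the letters TATAAA. The AP-1 site was sought as TGANTCA. One kind of E-box, the element of basic helix-loop-helix factors, was sought as CAGCTG. None of these letters occur in the 4 windows shown. No searched motif overlapped another there. Promoters matched 57 of the 67 guidance genes, with 73 windows. A GC box was in 53 of these 73 windows, or 72.6%, beside 32.7% of all 32851 windows, which include those of predicted genes. The TATA box was in 2.74% of the guidance windows and 12.4% of all windows, the AP-1 letters in 4.11% and 6.75%, and the E-box letters in 15.1% and 13%. For called genes 10 windows were counted, from 9 genes, with separate windows for Sema6d, and 5 held a GC box. Sema6a and Ntn1 are not in this count. It is therefore not the share for all called genes and is not set against the shares above. These matches describe the sequence and are not binding sites.

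Among class 3 semaphorins, 2 of 7 genes rose and none fell, beside 3.69% and 5.47% of all genes. Sema3c, a secreted semaphorin that acts through neuropilins and plexin D1 in the developing heart and vessels, had 8.30, 7.22 and 7.38 in relapsed gliomas 1, 2 and 3, against 5.51, 5.91 and 5.54 in control gliomas 1, 2 and 4. The groups lay 1.31 apart at their nearest values, and relapsed 1 was the highest. The difference was 1.97 ± 0.31 (SE, 3 arrays per group), or 3.93-fold, and limma gave an adjusted p of 0.0249. The control level of Sema3c averaged 5.66, close to the dim mark, so the fold is less certain. Sema3d, a secreted semaphorin that guides neural crest-derived and endothelial cells, had 7.83, 7.55 and 7.49 in relapsed gliomas, against 6.24, 6.16 and 6.12 in controls. Both groups were tight, and the gap between them was 1.25. It rose by 1.45 ± 0.11, or 2.73-fold, with the smallest adjusted p of the 67 genes in limma, 0.00703.

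The 5 other class 3 genes were not called. Sema3a, the classical collapsing factor of sensory growth cones, had 9.04, 9.89 and 10.44 in relapsed gliomas, against 10.34, 9.45 and 10.21 in controls. The groups overlapped widely, and the difference of -0.21 had a 95% interval of -1.27 to 0.84. Sema3b averaged 7.96 ± 0.14 (SD, n = 3) in relapsed and 7.48 ± 0.32 in control gliomas, with no overlap and an adjusted p of 0.161 in limma. Sema3e, Sema3f and Sema3g had overlapping groups.

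Neuropilins and plexins, the receptors of these ligands, gave no call in either direction, with 2 and 9 genes measured. Of all genes, 9.16% were called. Nrp1, a co-receptor of class 3 semaphorins and of vascular endothelial growth factor, had 10.05, 9.51 and 9.80 in relapsed gliomas, against 9.19, 9.46 and 9.18 in controls. The groups were separated by 0.05, and the difference of 0.51 ± 0.16 had an adjusted p of 0.117 in limma. Nrp2, which binds Sema3c and Sema3f among others, had 9.60, 10.47 and 10.36 in relapsed gliomas, against 9.76, 8.64 and 9.04 in controls. Relapsed 1 lay below control 1, and the difference of 0.99 ± 0.37 had an adjusted p of 0.160.

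Among plexins, 7 of 9 had groups that did not overlap, beside 30.8% of all genes, although none was called. Plxna2, a receptor of Sema6a, had 7.88, 8.66 and 8.91 in relapsed gliomas, against 9.50, 9.64 and 9.56 in controls. Relapsed 1 was the lowest by 0.78, and the difference was -1.08 ± 0.27 with an adjusted p of 0.0685 in limma. Without relapsed 1 it was called, with an adjusted p of 0.0395 in limma. Plxna1, which binds class 3 semaphorins with neuropilins and Sema6d without them, averaged 10.19 ± 0.13 (SD, n = 3) in relapsed and 9.88 ± 0.04 in control gliomas, an adjusted p of 0.0760. Plxnd1, the receptor of Sema3c and Sema3e in vessels, had 9.42, 9.75 and 9.61 in relapsed gliomas, against 9.86, 10.28 and 9.86 in controls, with no overlap. The adjusted p of Plxnd1 in limma was 0.165. The differences of Plxnb1 and Plxnb2, receptors of class 4 semaphorins, were -0.38 and -0.21, and those of Plxna3 and Plxna4 were -0.23 and 0.46. Plxnc1, the receptor of Sema7a, differed by 0.56 ± 0.29, with groups 0.03 apart at their nearest values. The groups of Plxna3 and Plxnb3 overlapped.

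Semaphorins of classes 4 to 7 had 4 falls and no rise among 13 genes, beside 5.47% and 3.69% of all genes. Sema5b, a transmembrane semaphorin with thrombospondin repeats that repels retinal neurites in mice, had 6.88, 6.73 and 6.76 in relapsed gliomas, against 7.80, 8.73 and 8.78 in controls. The relapsed values were close together, and control 1 lay nearest to them. Sema5b fell by 1.65 ± 0.28, or 3.13-fold, and limma gave an adjusted p of 0.0289. Sema6a, a transmembrane ligand of plexins A2 and A4 that controls granule cell migration in the cerebellum, had 8.38, 8.82 and 9.22 in relapsed gliomas, against 9.86, 10.02 and 10.25 in controls. It fell by 1.24 ± 0.23, with an adjusted p of 0.0369. Relapsed 1 was lowest, and relapsed 3 stood 0.64 below the nearest control.

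Sema6d, a ligand of plexin A1, had 8.83, 9.10 and 9.37 in relapsed gliomas, against 9.84, 10.42 and 10.44 in controls. It fell by 1.13 ± 0.22, with an adjusted p of 0.0395 in limma, and again relapsed 3 and control 1 were nearest to each other. Sema4g, a ligand of plexin B2, had 6.42, 6.45 and 6.44 in relapsed gliomas, against 7.06, 6.87 and 6.81 in controls. Its fall was the smallest of the 11 changes, 0.48 ± 0.08, with an adjusted p of 0.0272, and rests on very small spreads.

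Of the other 9 genes of these classes, 3 had higher and 6 lower means in relapsed gliomas. Sema7a, a membrane-linked semaphorin that binds plexin C1 and integrins, had 9.46, 8.83 and 9.49 in relapsed gliomas, against 8.45, 8.63 and 8.32 in controls. The difference of 0.79 ± 0.20 had an adjusted p of 0.0736 in limma, and 0.0421 without relapsed 2. Sema4a had 8.23, 7.79 and 7.47 in relapsed gliomas, against 6.75, 6.97 and 7.44 in controls, so that relapsed 3 and control 4 nearly met. Its difference of 0.77 ± 0.26 had an adjusted p of 0.134. Sema4b had 8.25, 8.73 and 9.36 in relapsed gliomas, against 9.69, 9.88 and 9.58 in controls, with a difference of -0.94 ± 0.29 and an adjusted p of 0.109 in limma. Sema5a, the paralog of Sema5b, averaged 9.19 ± 0.42 (SD, n = 3) in relapsed and 10.07 ± 0.51 in control gliomas, with overlapping groups and an adjusted p of 0.165. Sema4c differed by -0.24 ± 0.10.

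**Figure D2:**
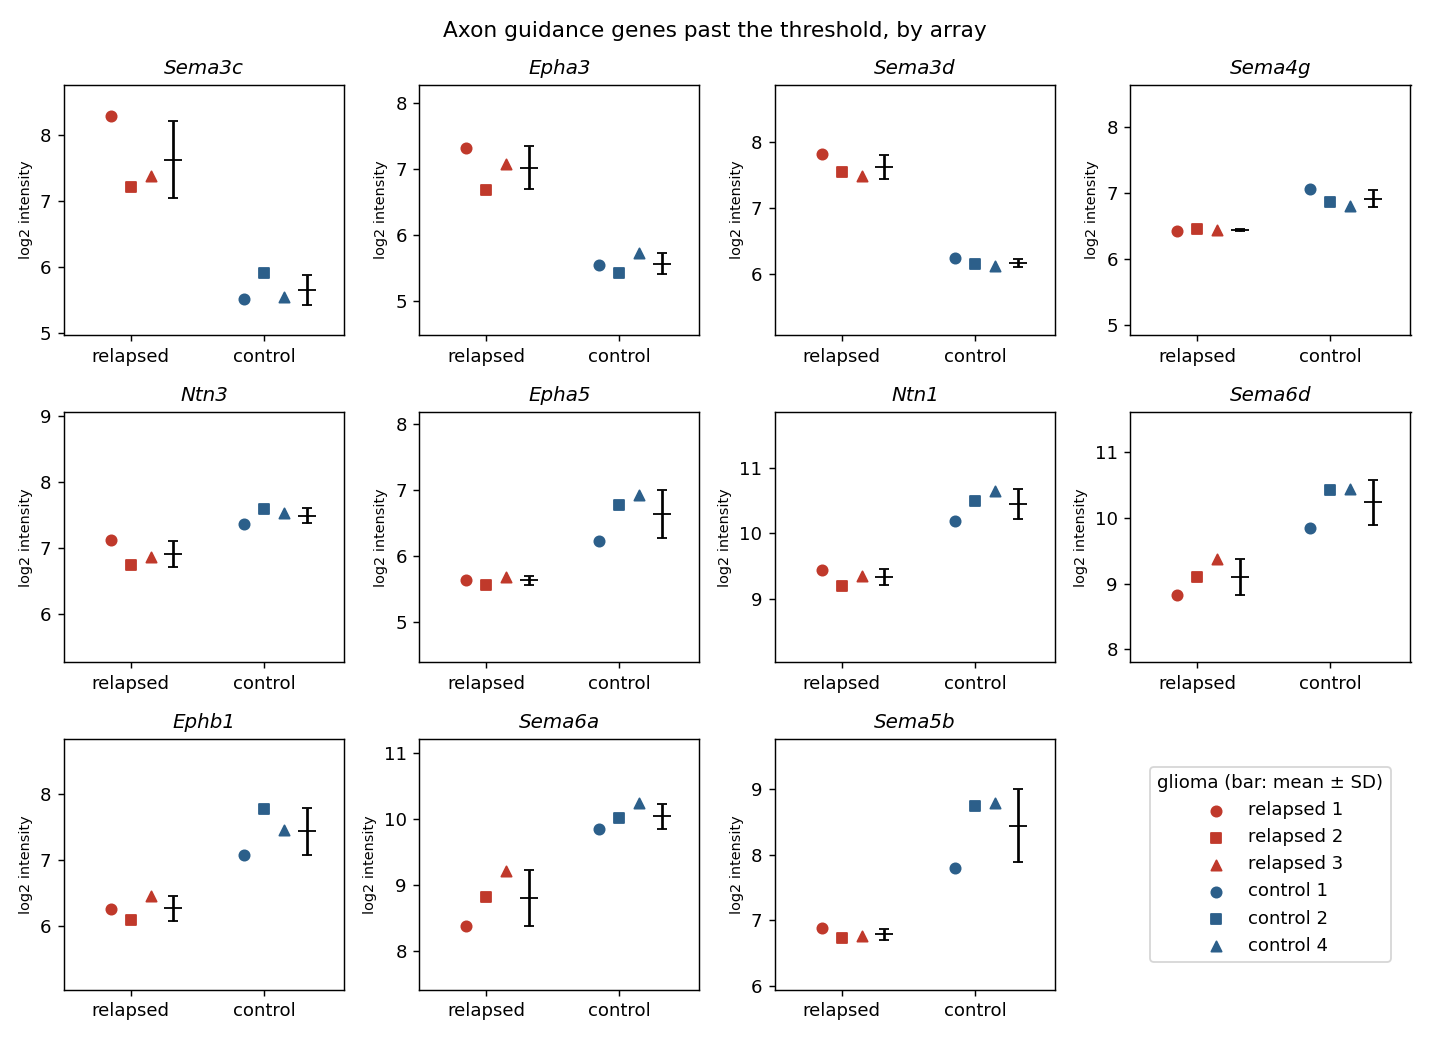
Log2 intensity of the 11 called guidance genes in each of the 3 relapsed (red, left) and 3 control (blue, right) gliomas, with the mean and SD of each group in black. All panels span the same height on the log2 scale, and in each the groups do not overlap, from a gap of 1.31 for Sema3c to 0.24 for Ntn3.

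Eph receptors had 1 rise and 2 falls among 13 genes, beside 3.69% and 5.47% of all genes. Epha3, a receptor of A-type ephrins studied in glioblastoma and in mesenchymal tissue, had 7.32, 6.68 and 7.08 in relapsed gliomas, against 5.55, 5.42 and 5.73 in controls. It rose by 1.46 ± 0.18, or 2.75-fold, and the adjusted p in limma was 0.0169. Its control mean of 5.57 lay below the dim mark, so the size of this rise, and its place among the changes of at least 2-fold, is less certain. Epha5, a receptor of A-type ephrins found mainly in neural tissue, had 5.64, 5.56 and 5.69 in relapsed gliomas, against 6.23, 6.77 and 6.93 in controls. It fell by 1.01 ± 0.19, with an adjusted p of 0.0356 in limma, and its relapsed mean of 5.63 lay below the dim mark, so this size is less certain.

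Ephb1, a receptor of B-type ephrins that guides retinal axons at the optic chiasm, had 6.26, 6.08 and 6.45 in relapsed gliomas, against 7.07, 7.77 and 7.45 in controls. It fell by 1.17 ± 0.20, or 2.25-fold, and limma gave an adjusted p of 0.0296. Its other probe set read 5.58, 5.59 and 5.59 in relapsed gliomas, against 5.59, 5.5 and 5.59 in controls, which is below the dim mark on each array and differed by 0.03 ± 0.06. That probe set does not repeat the fall, and at so dim a level it may be unable to show one.

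Ephb4, the arterial-venous partner of ephrin-B2, had 8.73, 8.62 and 8.75 in relapsed gliomas, against 9.04, 8.95 and 8.91 in controls. The groups did not overlap, and the small difference of -0.27 ± 0.07 had an adjusted p of 0.0664 in limma. Ephb3 averaged 8.30 ± 0.43 (SD, n = 3) in relapsed and 8.86 ± 0.06 in control gliomas, with no overlap and an adjusted p of 0.178. Epha4 differed by -0.47 ± 0.21, with overlapping groups. Epha2, a receptor often raised in glioblastoma, had 8.41, 8.92 and 9.56 in relapsed gliomas, against 9.37, 9.02 and 9.06 in controls, so that the relapsed values spanned all the control values. Epha1, Epha6 and Epha7 were below the dim mark on all 6 arrays.

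None of the 5 ephrin-A and 3 ephrin-B ligands was called, beside 9.16% of all genes. Efna3 came nearest, with 6.22, 6.42 and 6.82 in relapsed gliomas, against 7.50, 6.99 and 7.33 in controls. Its difference of -0.78 ± 0.20 had an adjusted p of 0.0736 in limma, and 0.0453 with each array centred on its median. Efna1, an ephrin induced by inflammatory signals in endothelium, averaged 8.03 ± 0.45 (SD, n = 3) in relapsed and 7.39 ± 0.14 in control gliomas, with overlapping groups and an adjusted p of 0.158. Efnb2, the ligand of Ephb4, differed by 0.30 ± 0.22 with overlapping groups.

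Netrins had 2 falls among 4 genes, beside 5.47% of all genes. Ntn1, the founding chemoattractant of commissural axons, had 9.45, 9.21 and 9.35 in relapsed gliomas, against 10.19, 10.50 and 10.64 in controls. The gap between the groups was 0.74, wider than either group's range. It fell by 1.10 ± 0.14, or 2.15-fold, and the adjusted p in limma was 0.0168. Ntn3 had 7.13, 6.75 and 6.87 in relapsed gliomas, against 7.37, 7.59 and 7.53 in controls. It fell by 0.58 ± 0.12 with an adjusted p of 0.0442, and the gap was 0.24. Ntn4, a netrin of basement membranes, averaged 7.64 in both groups.

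The receptors of netrins were not called. Unc5c, a repulsive netrin receptor, had 8.29, 7.50 and 7.10 in relapsed gliomas, against 6.46, 6.49 and 6.81 in controls. The groups did not overlap, relapsed 1 was the highest, and the difference of 1.04 ± 0.31 had an adjusted p of 0.106 in limma. Unc5b, a netrin receptor of endothelial tip cells, differed by -0.50 ± 0.19 with an adjusted p of 0.173. Dcc, the attractive netrin receptor, had 5.42, 5.58 and 5.75 in relapsed gliomas, against 5.81, 6.19 and 5.81 in controls, close to the dim mark throughout. Its difference of -0.35 ± 0.14 had an adjusted p of 0.193.

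Slits and Robos gave no call among 3 genes each, beside 9.16% of all genes. Slit2 had 7.75, 7.08 and 7.27 in relapsed gliomas, against 7.12, 6.34 and 6.46 in controls, a difference of 0.73 ± 0.27 with an adjusted p of 0.161 in limma. Relapsed 2 lay just below control 1. Slit3 had 9.28, 8.76 and 8.24 in relapsed gliomas, against 8.85, 8.44 and 8.31 in controls, so that relapsed 3 was the lowest of all 6 arrays. Slit1 differed by -0.28 ± 0.12. Robo1, a Slit receptor, had 9.75, 9.36 and 9.46 in relapsed gliomas, against 9.62, 9.94 and 9.87 in controls, with overlapping groups and an adjusted p of 0.253. Robo2 differed by 0.34 ± 0.21, with overlapping groups.

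The remaining 24 guidance genes, among them Ntn4, Plxnb3, Sema3e, Sema3f, Sema3g, Epha1, Epha6 and Epha7 named above, had differences of -0.39 to 0.30, adjusted p of at least 0.396 in limma and group means of 4.08 to 8.69. Of the 56 genes that were not called, 42 had a 95% interval that lay within 1 of zero on the log2 scale, which is a change of less than 2-fold. For the other 14 such a change was not bounded by these arrays. Of the 4 other genes with a second probe set besides Ephb1, neither probe set was called for Sema4d, Sema6b, Epha10 and Unc5d, and the 2 probe sets of Sema6b read the same value on each array to 2 decimals.

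Except for Sema3d, each call was lost in at least some of the fits that left out 1 array. Those fits have fewer arrays and called fewer of all genes whichever array was left out. A lost call therefore need not mean that the gene rested on 1 tumour. Sema3d kept its call in all 6 fits that left out 1 array, with adjusted p of 0.0234 to 0.0377 in limma. Epha3 kept it without relapsed 1 or relapsed 2, and Ntn1 without relapsed 1 or control 1. Sema3c and Ntn3 kept it without relapsed 1, and Sema5b, Ephb1 and Epha5 without control 1. Sema6a, Sema6d and Sema4g lost it in every one of these fits, with the smallest adjusted p at 0.0561, 0.0509 and 0.0523. In counts, 6, 3 and 1 guidance genes were called without relapsed 1, 2 and 3, and 5, 1 and 1 without control 1, 2 and 4. The share called of all genes was 4.89%, 2.13%, 1.49%, 2.08%, 3.49% and 1.32% in the same 6 fits. No difference of the 11 genes changed sign. The 3 genes that rose, with Epha5, Ephb1, Sema4g and Ntn3, belong to the dimmer 50% of genes by mean signal. Over these 6 fits the difference of Sema3d ranged from 1.34 to 1.52, that of Sema3c from 1.64 to 2.18, that of Sema5b from -1.97 to -1.48 and that of Epha3 from 1.31 to 1.63.

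**Figure D3:**
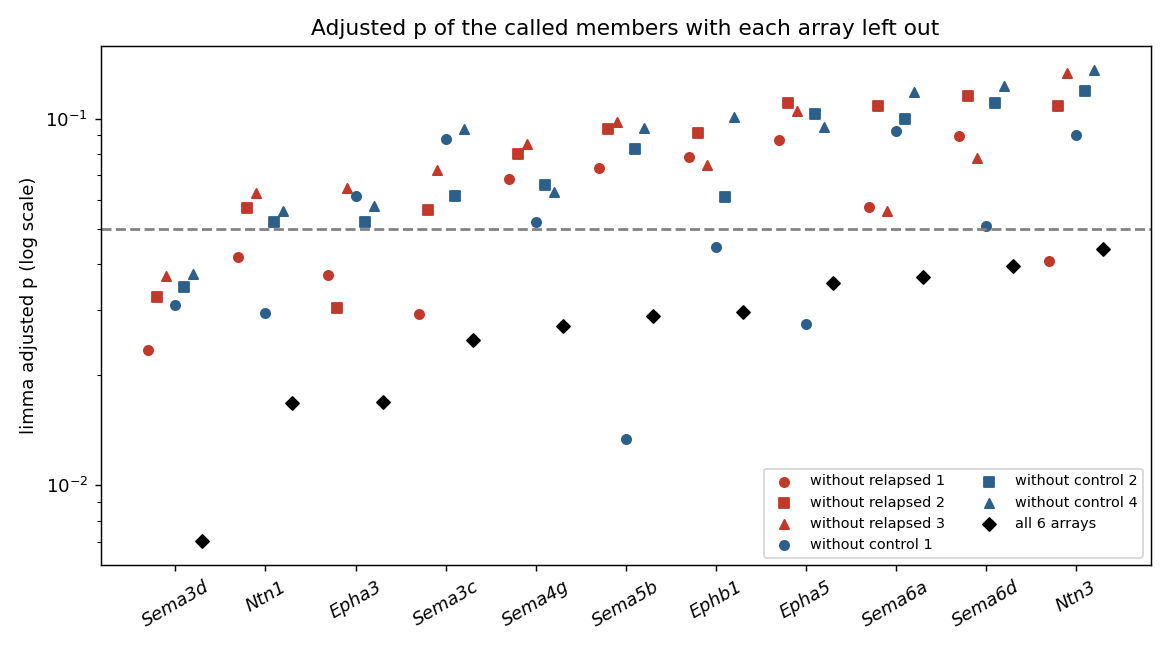
Adjusted p from limma (log scale) of the 11 called guidance genes with all 6 arrays (black) and with each relapsed (red) or control (blue) array left out; the dashed line is 0.05. Sema3d lies below the line in all fits, and Sema6a, Sema6d and Sema4g lie above it whenever an array is left out.

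The position of single tumours was uneven. Of the 11 called genes, relapsed 1 was the array farthest from the control mean for 6 and relapsed 2 for 5, and relapsed 3 for none. Control 1 was the control nearest to the relapsed mean for 8 of the 11.

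Other genes of the pathway were examined as a pair of lists. Of 52 cytoplasmic effectors of guidance receptors, 48 were measured, of which 2 rose and 7 fell, or 18.8% called beside 9.16% of all genes. Their median difference was -0.20. With the dimmer 50% of genes left out, 3 rose and 6 fell of 41, in a fit that called 20.3% of all genes kept. Dpysl2, or CRMP2, the collapsin response mediator that binds tubulin, had 11.29, 11.33 and 11.09 in relapsed gliomas, against 11.83, 11.78 and 11.77 in controls. It fell by 0.56 ± 0.08, and limma gave an adjusted p of 0.0203. Its relative Dpysl4 fell by 0.95 ± 0.20.

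Chn1 and Chn2, chimaerins that switch off Rac downstream of Eph receptors and plexins, fell by 1.31 ± 0.14 and 1.67 ± 0.34, with adjusted p of 0.0128 and 0.0427 in limma. Chn1 had 8.93, 9.41 and 9.31 in relapsed gliomas, against 10.54, 10.59 and 10.45 in controls, a gap of more than 1 between groups. Fyn, a Src-family kinase used by netrin and semaphorin receptors, fell by 1.26 ± 0.23. Srgap1, a Slit-Robo GTPase-activating protein, fell by 0.95 ± 0.13, and Vav3, an exchange factor of Eph signalling, by 0.94 ± 0.12.

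The 2 effectors that rose were Rasa1, the p120 Ras GTPase-activating protein that binds Eph receptors, by 1.11 ± 0.14, and Pak3, a kinase activated by Rac and Cdc42, by 0.56 ± 0.12. Their adjusted p were 0.0174 and 0.0467 in limma. Without any 1 array, up to 1 of these effectors was called higher and up to 3 lower. Dpysl4, Chn2, Fyn and Pak3 lost their calls in all 6 of those fits. Chn1 and Vav3 kept theirs without relapsed 1, relapsed 2 or control 2, and Srgap1 only without control 2. Dpysl2 kept its call without relapsed 1 or relapsed 3, and Rasa1 without relapsed 1 or control 2.

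Of 36 other guidance cues, receptors and co-receptors, 35 were measured, of which 2 rose and 2 fell, or 11.4% called beside 9.16% of all genes, with a median difference of 0.03. Cxcl12, the chemokine that guides migrating neurons and leukocytes through Cxcr4, had 9.23, 8.31 and 7.88 in relapsed gliomas, against 6.46, 6.19 and 6.64 in controls. It rose by 2.04 ± 0.36, with an adjusted p of 0.0316 in limma. Plxdc1, a plexin domain-containing membrane protein of tumour endothelium, rose by 1.5 ± 0.26. Chl1, an adhesion molecule that links with Nrp1 in Sema3a signalling, fell by 1.18 ± 0.22, and Robo4, an endothelial Robo, fell by 0.58 ± 0.12. With 1 array left out, between none and 1 of this list was called higher and between none and 2 lower. Robo4 lost its call in all 6 of those fits, and Chl1 kept it only without relapsed 3. Cxcl12 kept its call only without relapsed 1, and Plxdc1 only without control 1. The 2 genes called lower without control 1 were therefore neither Chl1 nor Robo4.

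**Figure D4:**
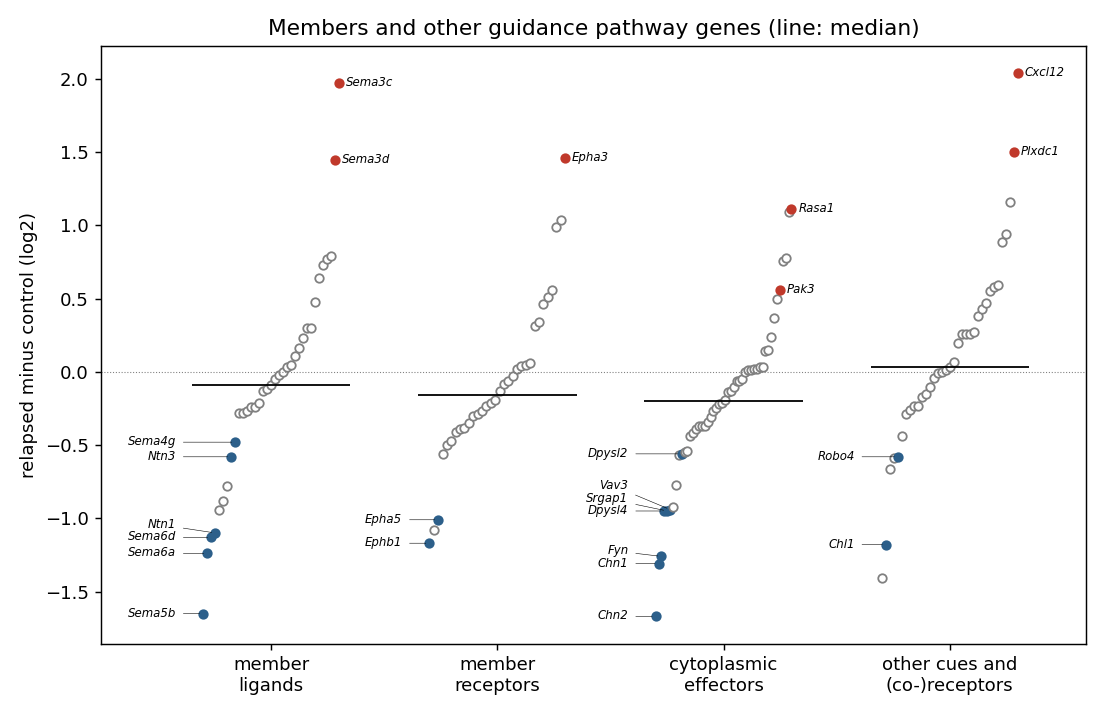
Difference between relapsed and control gliomas (log2) for the 35 member ligands, 32 member receptors, 48 cytoplasmic effectors and 35 other cues and receptors, each set sorted by difference, with its median as a line. Named red points rose and named blue points fell; the medians are -0.09, -0.16, -0.20 and 0.03.

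Markers of some cell types differed between the groups, and whether glioma or host cells carried them was not tested. The marker counts stand beside 3.69% of all genes that rose and 5.47% that fell. All 10 macrophage markers had higher means in relapsed gliomas, and 8 rose; their summed intensity was 13.63 to 14.17 on the log2 scale in relapsed gliomas and 12.18 to 12.62 in controls. Of 10 fibroblast markers 8 rose, with a summed intensity of 14.69 to 15.22 in relapsed and 13.09 to 13.72 in control gliomas. Of 9 oligodendrocyte progenitor markers 4 fell (Olig1, Olig2, Nkx2-2 and Bcan), with 11.31 to 11.72 in relapsed and 12.50 to 13.41 in control gliomas. The 5 others were not called, and 3 of them (Pdgfra, Cspg4 and Gpr17) had higher means in relapsed gliomas. The means of all these markers stood above the dim mark in both groups, as did those of 8 astrocyte markers. None of 10 endothelial markers was called, with 11.54 to 11.73 in relapsed and 11.91 to 12.23 in control gliomas. Neuron markers gave 1 rise and 1 fall among 10, and astrocyte markers 1 rise and 1 fall among 8. No marker of pericytes and smooth muscle or of Schwann cells was called. The part that these cells have in the differences of the guidance genes was not tested.

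Single tumours also stood apart in markers of adipocytes, keratinocytes or skeletal muscle, and the source of this signal was not tested. The mean deviation of adipocyte markers was 2.65 in relapsed 1 and -0.76 to -0.29 in the other arrays. Relapsed 1 also had the highest macrophage and fibroblast scores, 1.09 and 1.30. It had the highest values of Sema3c, Sema3d, Epha3 and Unc5c, and of other genes such as Slit2, Sema4a and Nrp1. Its values of Plxna2, Sema4b, Sema6a and Sema6d were the lowest of the 6 arrays. Sema3c, Sema3d and Epha3 were also called without relapsed 1, with differences of 1.64, 1.34 and 1.31. Relapsed 2 and 3 also had raised macrophage scores, 0.59 and 0.56, and fibroblast scores, 0.52 and 0.52. The marker difference between the groups therefore remains without relapsed 1. The keratinocyte score was 1.26 in relapsed 3, and the skeletal muscle score 1.73 in control 2.

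**Figure D5:**
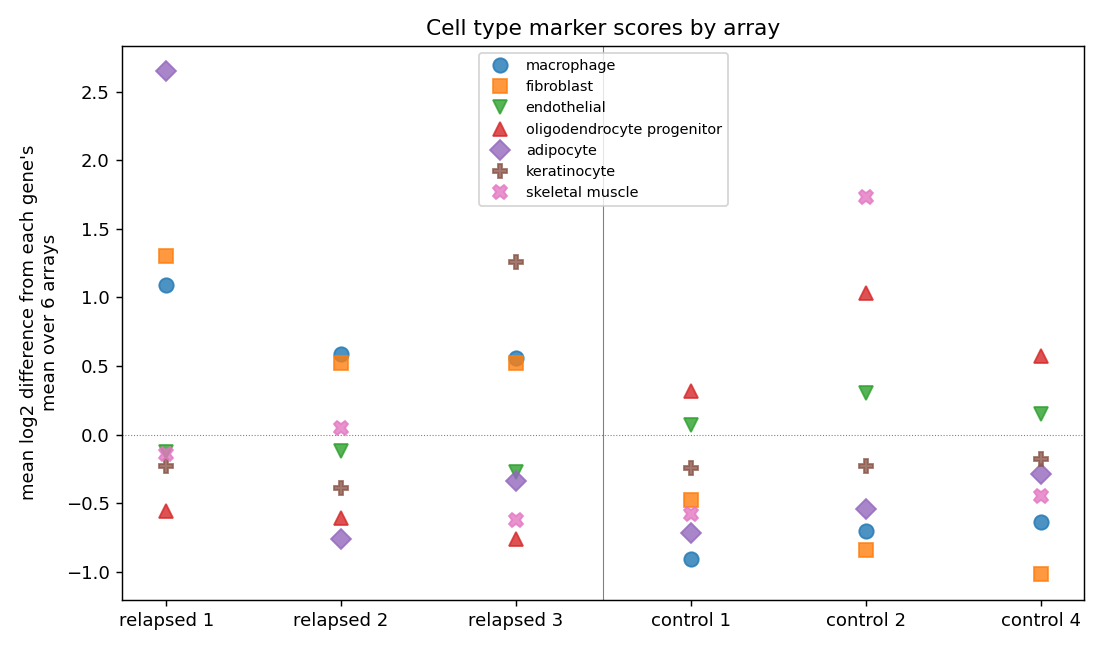
Marker scores of 7 cell types in each array, relapsed on the left and control on the right, in which each gene's log2 value is taken relative to its mean over the 6 arrays and then averaged over the list. Macrophage and fibroblast scores are above zero in the 3 relapsed gliomas and below it in the 3 controls, and the adipocyte score of relapsed 1 reaches 2.65.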

How the data were processed

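Total RNA (5 ug per tumour, per the labels) was measured on Affymetrix mouse gene arrays, 1 per tumour. The deposited table holds 1 log2 intensity for each of 35556 probe sets and array, normalized between arrays by the authors. The log2 scale was read from the deposited values, and affy is the only package in the submitters' processing notes, without a version; the method of normalization is not given in the sources used here. Array medians ran from 6.67 to 6.68 in relapsed and 6.58 to 6.62 in control gliomas, a mean shift of 0.07 between the groups, and normalization between arrays can hide a change common to most genes. Precision is limited by the number of arrays.

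The platform annotation gave 1 symbol to 21789 probe sets, several to 1621 and none to 12146. Where a gene had several such probe sets (999 genes, 5 of them guidance genes), the probe set with the highest mean stood for the gene. Values were used as deposited, with no filter on dim probe sets, and fitted with limma 3.58.1 in R 4.3.3 (lmFit and eBayes, relapsed against control, residual df 4, prior df 1.53), after a test on simulated data. P-values are two-sided and adjusted over 19938 genes. The guidance genes, gene lists and tests were chosen with earlier results of these data known. Named singly were all called genes, those with an adjusted p under 0.1, the largest difference in each family and called genes of the 2 pathway lists. The other names were chosen after their values were seen. They include every other guidance gene with an unadjusted p under 0.1 in limma.

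Alternatives were a filter leaving out the dimmer 50% of genes, quantile normalization, median centring, the mean of a gene's probe sets, all probe sets tested, a trended or robust prior variance, each array left out, and the glioma number as a block. Promoter windows come from RefSeq on GRCm38.p6.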

Additional observations from a re-analysis of the deposited data

How the results depend on the processing

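The counts reported above were 3 guidance genes higher and 8 lower in relapsed gliomas, 735 and 1091 of all genes, 2 and 7 effectors, and 2 and 2 other cues and receptors. With 1 array left out these ranged from 1 to 3 and 0 to 4 for guidance genes, 120 to 380 and 144 to 595 for all genes, 0 to 1 and 0 to 3 for effectors, and 0 to 1 and 0 to 2 for other cues. Sema3d was called in each of these fits. With the dimmer 50% of genes left out, 1 guidance gene was called higher and 5 lower, Sema7a and Plxna2 among them. These are 6 of the 37 guidance genes kept, or 16.2%, beside 20.3% of all genes kept. Of the 11 called genes, 7 were among those left out. In the same fit 3 effectors were higher and 6 lower of 41, and 4 other cues were higher and 2 lower of 24. With all probe sets tested, 5 guidance genes were lower, 1 effector higher and 1 other cue lower, over a larger number of tests. Median centring gave 1687 lower genes among all, 1 higher effector and 4 lower other cues, with the median over all genes at -0.093 against -0.019; it called 14 guidance genes, the 11 named above and 3 more (Ephb4, Efna3 and Plxna2). Quantile normalization gave 1 higher effector and 4 lower other cues, and the trended prior variance 1 higher effector; the cause was not tested.

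The glioma number as a replicate block, with numbers 1 and 2 shared by the groups, called 0 guidance genes, 0 of all genes, 0 effectors and 0 other cues in limma, in each direction, while 2199 genes, 19 of them guidance genes, had an unadjusted p under 0.05. This fit has 1 residual degree of freedom. Gliomas of the same number deviated from their group means with correlations of -0.34 and -0.25, and the labels do not say that a number marks a pair.

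No called gene changed sign under any alternative. Of all 67 genes 17 did, each with a difference of at most 0.23 in size. Those described singly were Epha2, -0.487 to 0.088 with 1 array left out, Sema3a, -0.532 to 0.165, and Slit3, -0.032 to 0.489, each reversed without relapsed 1.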
